A study of Homo sapiens with 6 samples.

Results

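The interferon-stimulated genes described here are 44 genes whose RNA rises when cells sense type I interferon. They were chosen by symbol, with earlier results of these data known. Each gene was followed through the probe sets that the platform annotation assigns to its symbol alone. Of the 44 genes, 43 had such a probe set, 71 probe sets in all, among 54675 probe sets and 19775 genes on the array. STAT2 had no probe set assigned to it alone and was not analysed here. RNA came from MDA-MB-231, an estrogen receptor-negative human breast cancer cell line. One group received siRNA against LSD1, the histone demethylase encoded by KDM1A (3 arrays), and the other received a control siRNA (3 arrays). Cells of both groups went through 2 rounds of transfection and were collected after 6 days, and the replicates are described as biological. No added interferon is named for either group. The siRNA sequences, and whether more than 1 was used against LSD1, are not given in the sources used here. Effects of LSD1 loss and of the siRNA itself cannot be told apart in this design.

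Type I interferon binds a receptor of the subunits IFNAR1 and IFNAR2, and the kinases JAK1 and TYK2 then act on STAT proteins. With IRF9 these STAT proteins form a complex that binds the interferon-stimulated response element, a short DNA motif in the promoters of many of the genes described here. Their products include sensors of foreign RNA, such as RIGI and IFIH1, and proteins that block viral translation, replication or entry, such as the IFIT, OAS, MX and IFITM families. Part of this programme is active without infection in some tumour cell lines.

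The promoters of 6 of the genes are printed first, because they span the directions found below. IFI27 and IFI44L rose with LSD1 siRNA and carry the response element core, HERC5 and IFITM1 carry it and fell, ISG15 carries it and did not pass the test, and SAMD9L rose without a match. Each window runs from 250 bases before to 50 bases after the annotated start, 5′ to 3′ on the strand of the gene, from RefSeq on GRCh38.p14. Capitals mark the core GAAA, any 2 bases, GAAA, or its reverse complement TTTC, any 2 bases, TTTC.
IFI27 (chr14:94110486-94110785, plus strand): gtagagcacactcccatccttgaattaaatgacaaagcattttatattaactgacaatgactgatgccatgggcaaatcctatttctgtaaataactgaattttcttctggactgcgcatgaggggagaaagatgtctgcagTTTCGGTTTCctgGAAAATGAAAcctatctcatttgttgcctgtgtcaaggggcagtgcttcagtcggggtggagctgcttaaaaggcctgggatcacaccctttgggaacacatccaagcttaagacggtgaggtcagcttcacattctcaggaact
IFI44L (chr1:78620198-78620497, plus strand): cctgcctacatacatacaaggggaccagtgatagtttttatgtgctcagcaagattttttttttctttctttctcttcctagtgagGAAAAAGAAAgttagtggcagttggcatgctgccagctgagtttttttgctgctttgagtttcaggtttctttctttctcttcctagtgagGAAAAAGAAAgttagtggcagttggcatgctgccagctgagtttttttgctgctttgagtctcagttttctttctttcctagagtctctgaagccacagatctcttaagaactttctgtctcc
HERC5 (chr4:88456869-88457168, plus strand): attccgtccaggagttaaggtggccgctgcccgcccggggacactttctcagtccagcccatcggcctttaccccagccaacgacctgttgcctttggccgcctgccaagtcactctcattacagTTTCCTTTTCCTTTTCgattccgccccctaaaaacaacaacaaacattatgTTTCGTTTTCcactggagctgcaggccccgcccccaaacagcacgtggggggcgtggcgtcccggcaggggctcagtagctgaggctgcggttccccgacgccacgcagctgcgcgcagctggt
IFITM1 (chr11:313790-314089, plus strand): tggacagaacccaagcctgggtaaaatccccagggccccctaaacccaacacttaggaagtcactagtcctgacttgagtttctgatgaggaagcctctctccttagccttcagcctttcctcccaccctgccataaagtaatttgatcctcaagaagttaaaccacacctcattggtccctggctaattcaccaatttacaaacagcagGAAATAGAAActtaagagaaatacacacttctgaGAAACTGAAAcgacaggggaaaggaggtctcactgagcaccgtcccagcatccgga
ISG15 (chr1:1013247-1013546, plus strand): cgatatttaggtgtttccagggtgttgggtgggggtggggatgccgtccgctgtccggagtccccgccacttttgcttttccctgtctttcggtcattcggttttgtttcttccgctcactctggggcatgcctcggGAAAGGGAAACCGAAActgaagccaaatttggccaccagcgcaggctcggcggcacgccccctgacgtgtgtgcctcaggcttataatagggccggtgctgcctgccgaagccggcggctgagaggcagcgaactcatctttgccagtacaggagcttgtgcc
SAMD9L (chr7:93148336-93148635, minus strand): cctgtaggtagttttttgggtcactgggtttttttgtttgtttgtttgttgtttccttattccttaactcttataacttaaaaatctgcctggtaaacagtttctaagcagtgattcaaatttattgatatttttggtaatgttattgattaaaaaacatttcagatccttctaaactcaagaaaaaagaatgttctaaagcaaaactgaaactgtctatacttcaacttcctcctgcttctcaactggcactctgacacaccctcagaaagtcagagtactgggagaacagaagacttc

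Promoter windows were matched for 35 of the 44 genes. The core, searched on both strands, lay in at least 1 window of 24 of the 35 genes (68.6%), against 1195 of 27305 genes with a window (4.4%). By direction, it was found for 11 of 18 genes that rose (61.1%), both genes that fell, and 11 of 14 tested genes that did not pass (78.6%). The HERC5 window held 3 matches, 2 of which overlap in the printed run, and the ISG15 window held 2 overlapping ones. A second motif, TTCNNNGAA, the core of the element bound by STAT dimers, was found for 12 of 35 genes (34.3%), against 9.4% of all genes with a window. In the IFI27 and IFITM1 windows a match to this second motif overlaps a match to the first. These matches describe letters in the window only.

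The targeted gene was read first. KDM1A gave signals of 290.5, 183.8 and 227.5 on the LSD1 siRNA arrays, against 2540.1, 2492.5 and 2294.9 on the control siRNA arrays. The mean signal with LSD1 siRNA was 9.58% of that with control siRNA, a log2 change of -3.32 (SE 0.13, adjusted p = 1.49e-08). An exact two-sided permutation test of this single gene gave p = 0.1, the smallest that 20 splits of 3 against 3 arrays allow. All signals are linear MAS5 intensities, each log2 change is the difference of mean log2(signal + 15), LSD1 siRNA minus control siRNA, and adjusted p values come from limma with Benjamini-Hochberg adjustment over all genes tested, with a threshold of 0.05. Of the 7 markers read for the line, 2 fell and none rose, where 21.3% of all genes tested fell and 19.8% rose. Those that fell were KRT18, a keratin gene (-0.45, adjusted p = 0.00185), and EGFR, the EGF receptor gene (-0.25, adjusted p = 0.0194). KRT18 is read only by a probe set marked for possible cross-hybridisation. The summed signal of all 7, bright and dim ones together, was 52694 to 58067 on LSD1 siRNA arrays and 61179 to 74310 on control siRNA arrays. These ranges do not overlap, and for 26.2% of all genes every LSD1 siRNA array also lay below every control siRNA array. VIM, for vimentin, was the brightest of the 7, averaging 27438 with LSD1 siRNA and 32798 with control siRNA. Its arrays overlapped and it did not pass (adjusted p = 0.0654). The ESR1 signal, for the estrogen receptor, averaged 75.7 with LSD1 siRNA and 59.1 with control siRNA. The summed signal of 9 leukocyte markers with a probe set spanned 333 to 488 on LSD1 siRNA arrays and 353 to 431 on control siRNA arrays, and none of the 5 tested passed. For 3 plasmacytoid dendritic cell markers the sums were 56 to 103 with LSD1 siRNA and 20 to 58 with control siRNA, and for 4 fibroblast markers 489 to 621 with LSD1 siRNA and 524 to 612 with control siRNA, with none passing in either list; their part in the results below was not tested. The β-actin 3′ to 5′ signal ratio, a sign of RNA integrity, was 1.74 in control replicate 1 and 1.33 to 1.43 on the other 5 arrays. In RNA of a whole culture, fewer cells of a kind and less RNA per cell cannot be told apart.

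Of the 44 genes, 42 passed the filter on dim signals and were tested. DHX58, an RNA helicase that regulates RIGI and IFIH1 signalling, did not, at 3.4, 10.6 and 5.7 with LSD1 siRNA against 6.5, 6.9 and 4.8 with control siRNA. With LSD1 siRNA 21 of the 42 rose (50.0%), against 19.8% of all 13847 genes tested, and 2 fell (4.8%), against 21.3% of all genes. In either direction 23 of the 42 changed, where 41.1% of all genes did. A rise of at least 1.5-fold was seen for 11 of the 42 (26.2%), against 8.46% of all genes. All 3 LSD1 siRNA arrays lay above all 3 control siRNA arrays for 22 of the 42 genes (52.4%), against 24.3% of all genes. They lay below for 4 of the 42 (9.5%), against 26.2% of all genes. The median log2 change was 0.30 over the 42 genes, with a range of -0.63 to 2.03, and -0.02 over all genes tested. Without control replicate 1, the array with the highest actin ratio, 17 of the 42 genes rose and 2 fell. In that fit 5138 of all 13847 genes changed in either direction, against 5686 with all arrays.

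**Figure D1:**
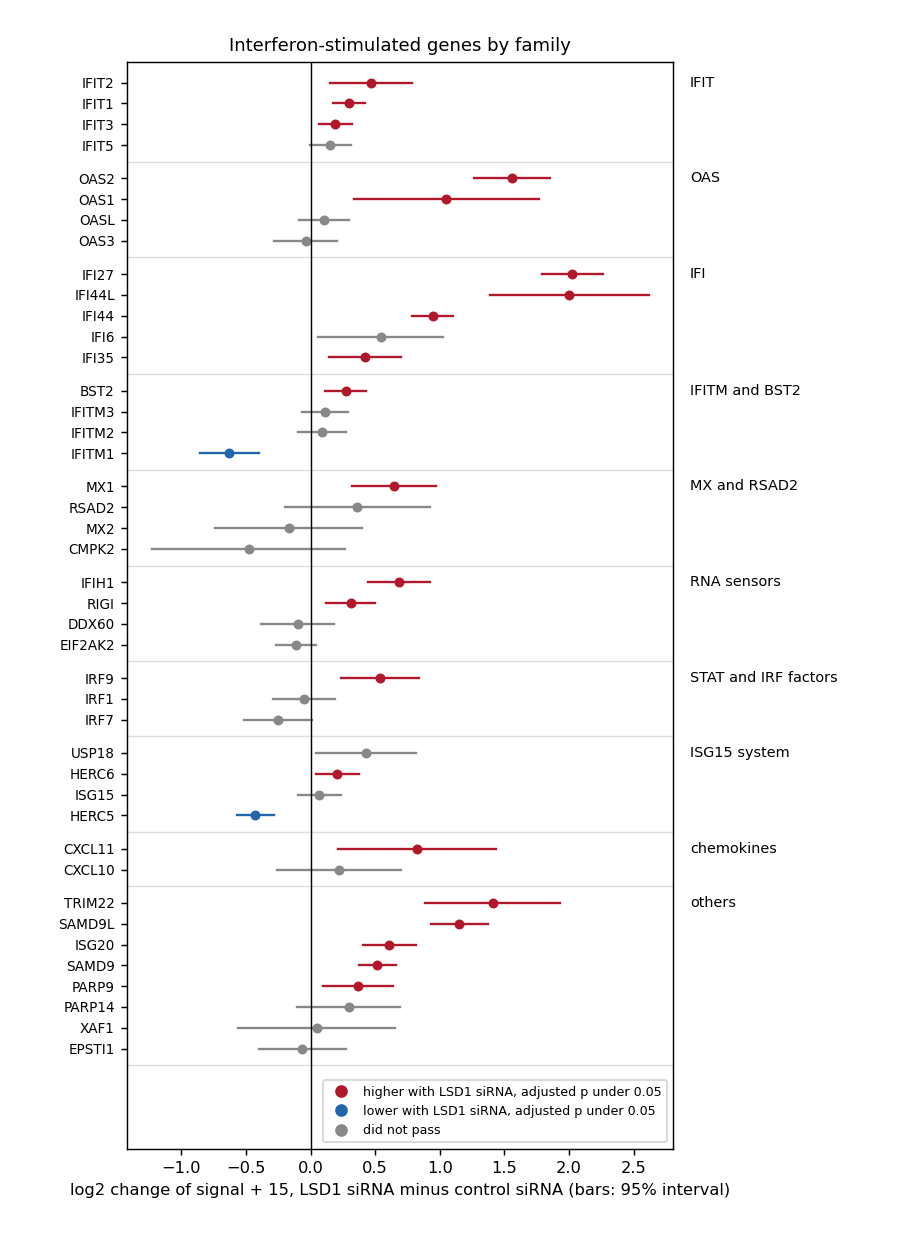
Log2 change of signal + 15 (x axis, LSD1 siRNA minus control siRNA) for the 42 interferon-stimulated genes tested, grouped by family; points are fitted changes from 3 arrays a group, bars are 95% intervals, and colour gives the direction where the adjusted p was under 0.05. The 21 genes that rose reach 2.03 for IFI27, and the 2 that fell are IFITM1 and HERC5.

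Among the IFI genes, a name shared by interferon-inducible proteins of unlike function, 4 of 5 rose (80.0%, against 19.8% of all genes). For all 5 every LSD1 siRNA array lay above every control siRNA array, against 24.3% of all genes. IFI27, a mitochondrial and nuclear membrane protein, gave 1034.7, 1159.6 and 1201.0 with LSD1 siRNA, against 232.2, 289.6 and 280.0 with control siRNA. Every LSD1 siRNA array stood above 3 times every control siRNA array, and the log2 change was 2.03 (SE 0.11, adjusted p = 1.02e-07). IFI44L, a regulator of interferon responses, gave 171.5, 188.9 and 233.5 with LSD1 siRNA, against 19.6, 58.1 and 43.1 with control siRNA. Its control signals spread over a wide range at low intensity, and its log2 change was 2.00 with a larger error (SE 0.28, adjusted p = 0.000133). Its relative IFI44 gave 2281.3, 2212.2 and 2443.1 with LSD1 siRNA, against 1103.2, 1247.7 and 1230.9 with control siRNA, a log2 change of 0.95 (SE 0.07, adjusted p = 1.61e-06). Averaged over its probe sets the IFI44 change was 0.58 (adjusted p = 0.00309), since a dimmer set changed by 0.20. IFI35, which binds other interferon-induced proteins, rose by 0.42 (adjusted p = 0.0205). That call was lost under 4 of 17 alternatives (adjusted p 0.0684 to 0.137), 2 of them the removal of control replicate 3 (0.0684) or of LSD1 replicate 1 (0.0928). IFI6, an inhibitor of apoptosis and of flavivirus replication, averaged 152.2 ± 27.7 with LSD1 siRNA and 101.1 ± 26.8 with control siRNA (SD, n = 3 each) and did not pass (log2 change 0.54, adjusted p = 0.0712).

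**Figure D2:**
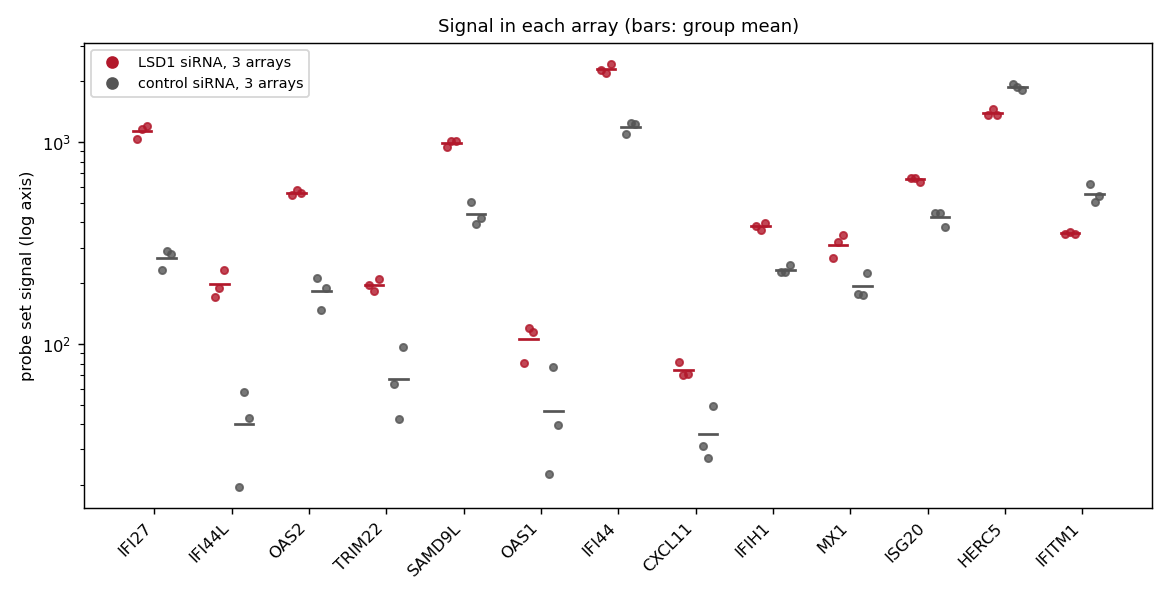
Probe set signal (y axis, log scale) on each of 3 LSD1 siRNA arrays and 3 control siRNA arrays for the 11 genes that rose by at least 1.5-fold and the 2 that fell; points are arrays and bars are group means. IFI27 lies between 1034.7 and 1201.0 with LSD1 siRNA and between 232.2 and 289.6 with control siRNA, whereas HERC5 and IFITM1 lie lower with LSD1 siRNA.

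The OAS enzymes make 2′-5′-linked oligoadenylates that activate the ribonuclease RNase L. OAS2 gave 549.7, 580.3 and 557.2 with LSD1 siRNA, against 211.9, 146.6 and 190.4 with control siRNA. The groups did not overlap, and the log2 change was 1.56 (SE 0.14, adjusted p = 3.67e-06). Its other probe sets changed by 0.67, past the test, and 0.24, not past it, and the mean of the sets gave 0.82 (adjusted p = 0.0109). OAS1 gave 80.6, 120.1 and 115.2 with LSD1 siRNA, against 22.7, 76.7 and 39.6 with control siRNA. The closest arrays, LSD1 replicate 1 and control replicate 2, were near each other, and the log2 change of 1.05 carried an SE of 0.33 (adjusted p = 0.0227). Its call was lost under 7 alternatives (adjusted p 0.0505 to 0.135), among them the removal of control replicate 1 (0.0714), control replicate 3 (0.0505), LSD1 replicate 2 (0.0797) or LSD1 replicate 3 (0.0777), and a constant of 60 gave 0.66. OAS3, the long form of the enzyme, overlapped between groups at 477.0 ± 40.7 with LSD1 siRNA and 491.1 ± 53.2 with control siRNA (SD, n = 3 each). Its log2 change was -0.04 with a 95% interval of -0.28 to 0.20. OASL, a family member without enzyme activity that enhances RIGI signalling, did not pass on its brightest set (0.10, adjusted p = 0.380). A second OASL set was higher with LSD1 siRNA (0.31, adjusted p = 0.0222 over all probe sets), and the mean of both passed (0.21, adjusted p = 0.0462).

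The IFIT proteins bind foreign RNA and block its translation. All 4 had a positive change and 3 rose (75.0%, against 19.8% of all genes), each by under 1.5-fold. IFIT1 gave 5930.5, 6122.5 and 6139.9 with LSD1 siRNA, against 4921.3, 4827.5 and 5033.7 with control siRNA, a log2 change of 0.30 (SE 0.06, adjusted p = 0.000991). The shift was small, but the arrays within each group differed from each other by less than the groups did. IFIT2 rose by 0.47 (SE 0.14, adjusted p = 0.0217) and IFIT3 by 0.19 (SE 0.06, adjusted p = 0.0206). The call of IFIT2 was lost under 6 alternatives (adjusted p 0.0569 to 0.206), among them the removal of control replicate 1 (0.0607), control replicate 2 (0.0716, log2 change 0.28), LSD1 replicate 2 (0.0582) or LSD1 replicate 3 (0.0569). That of IFIT3 was lost under 6 (adjusted p 0.0502 to 0.0860), among them the removal of control replicate 1 (0.0601), control replicate 2 (0.0604), LSD1 replicate 1 (0.0502) or LSD1 replicate 3 (0.0860). IFIT5 had a change of 0.15 with overlapping arrays (adjusted p = 0.113), and passed without control replicate 3 (0.22, adjusted p = 0.0189). A second IFIT5 set changed by 0.38 (adjusted p = 0.0673 over all probe sets) and the mean of both by 0.27 (adjusted p = 0.0571), neither past the test.

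The membrane proteins were divided. IFITM1, which restricts virus entry at the cell surface, gave 348.6, 359.3 and 350.8 with LSD1 siRNA, against 622.8, 504.9 and 541.2 with control siRNA. The LSD1 siRNA arrays were close together and all below the control siRNA arrays, and IFITM1 fell by 0.63 on the log2 scale (SE 0.10, adjusted p = 0.000450). IFITM2 and IFITM3, which act in endosomes, overlapped between groups, with changes of 0.09 (95% interval -0.10 to 0.27) and 0.11 (-0.07 to 0.29). Both are read only by probe sets marked for possible cross-hybridisation, and these 3 genes are close copies, so their signals are uncertain. BST2, or tetherin, which holds budding virus at the cell surface, rose by 0.27 (adjusted p = 0.00985), averaging 1512.3 ± 63.0 with LSD1 siRNA and 1250.3 ± 77.2 with control siRNA (SD, n = 3 each).

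MX1, a dynamin-like GTPase that blocks viral replication, gave 266.1, 318.2 and 347.7 with LSD1 siRNA, against 177.5, 175.4 and 225.3 with control siRNA. No array of one group reached the other, and MX1 rose by 0.65 (SE 0.15, adjusted p = 0.00406). MX2, its relative, had a change of -0.17 (95% interval -0.74 to 0.40). RSAD2, or viperin, which makes a chain-terminating nucleotide, had a change of 0.36 (adjusted p = 0.295). CMPK2, the mitochondrial nucleotide kinase encoded beside RSAD2, averaged 24.9 ± 4.8 with LSD1 siRNA and 41.1 ± 12.0 with control siRNA (SD, n = 3 each). The LSD1 siRNA arrays of CMPK2 were all below the control siRNA arrays, close to the filter, and it did not pass (-0.48, adjusted p = 0.295).

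Of the sensors of double-stranded RNA, 2 of 4 tested rose (50.0%, against 19.8% of all genes). IFIH1, or MDA5, gave 383.1, 368.3 and 397.2 with LSD1 siRNA, against 226.0, 226.8 and 244.9 with control siRNA. The 3 arrays of each group were close together, and IFIH1 rose by 0.68 (SE 0.11, adjusted p = 0.000379). Averaged over its probe sets, dim ones included, the change was 0.36 and the call was lost (adjusted p = 0.218). RIGI, or RIG-I, gave 1239.7, 1313.7 and 1156.5 with LSD1 siRNA, against 980.8, 912.2 and 1095.5 with control siRNA. All LSD1 siRNA arrays were the higher ones, and RIGI rose by 0.31 (SE 0.09, adjusted p = 0.0121). Its call was lost under 4 alternatives, namely the removal of control replicate 2 (0.0522) or LSD1 replicate 2 (0.0578), an unmoderated test (0.0775), and a brighter set marked for possible cross-hybridisation (log2 change 0.18, adjusted p = 0.142). Another RIGI set, without that mark, changed by 0.17 and did not pass either (adjusted p = 0.161 over all probe sets). DDX60, a helicase that promotes RIGI signalling, had a change of -0.10 (95% interval -0.38 to 0.18). EIF2AK2, or PKR, the kinase that halts translation when it binds double-stranded RNA, had a change of -0.11 (95% interval -0.27 to 0.05).

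The transcription factors did not move together. IRF9, the DNA-binding partner of the STAT proteins, gave 454.5, 475.5 and 376.0 with LSD1 siRNA, against 253.1, 347.9 and 285.3 with control siRNA. Every LSD1 siRNA array was the higher, and IRF9 rose by 0.54 (SE 0.14, adjusted p = 0.00760), which an unmoderated test did not call (adjusted p = 0.0788). IRF1, which is induced by interferon-gamma and acts without IRF9, gave 494.6, 505.0 and 471.9 with LSD1 siRNA, against 460.7, 597.7 and 477.8 with control siRNA. The groups overlapped, with a log2 change of -0.05 (95% interval -0.29 to 0.19). IRF7, the factor that amplifies interferon production, gave 355.1, 365.2 and 358.5 with LSD1 siRNA, against 493.8, 440.7 and 366.8 with control siRNA. All LSD1 siRNA arrays of IRF7 were below the control siRNA arrays, yet control replicate 3 was close to them, and the change of -0.25 missed the threshold (adjusted p = 0.116). It passed as lower with LSD1 siRNA once control replicate 3 was left out (-0.36, adjusted p = 0.0229).

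ISG15 is a ubiquitin-like protein that is joined to other proteins. It gave 11262.3, 10851.0 and 11252.0 with LSD1 siRNA, against 11657.4, 10816.4 and 9451.2 with control siRNA. The groups overlapped, with a log2 change of 0.07 and a 95% interval of -0.10 to 0.23. HERC5, the main ligase that joins ISG15 to targets in human cells, gave 1359.7, 1455.6 and 1357.0 with LSD1 siRNA, against 1932.8, 1881.3 and 1809.7 with control siRNA. Every LSD1 siRNA array was below every control siRNA array, and HERC5 fell by 0.43 on the log2 scale (SE 0.07, adjusted p = 0.000265). HERC6, the related gene beside it, was higher at 1020.7 ± 20.5 with LSD1 siRNA and 882.2 ± 52.3 with control siRNA (SD, n = 3 each), a log2 change of 0.21 (adjusted p = 0.0442). The HERC6 call was lost without the filter (0.0507), without the intensity trend (0.0677), and without control replicate 2 (0.0872), control replicate 3 (0.111), LSD1 replicate 1 (0.116), LSD1 replicate 2 (0.0842) or LSD1 replicate 3 (0.0993). With the mean of both HERC6 probe sets, one of them below the filter, the direction turned (-0.15, adjusted p = 0.440). USP18, the protease that removes ISG15 and also restrains the receptor, overlapped between groups and did not pass (0.43, adjusted p = 0.0722), but passed without control replicate 1 (0.56, adjusted p = 0.0319).

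The chemokines CXCL10 and CXCL11 attract T cells through CXCR3. CXCL11 gave 81.0, 70.2 and 70.7 with LSD1 siRNA, against 31.2, 27.3 and 49.5 with control siRNA. Both ranges were apart, and CXCL11 rose by 0.82 with an SE of 0.28 (adjusted p = 0.0341). The call was lost under 7 alternatives (adjusted p 0.0523 to 0.109), among them the removal of control replicate 1 (0.0713), control replicate 2 (0.0914), LSD1 replicate 1 (0.109), LSD1 replicate 2 (0.0761) or LSD1 replicate 3 (0.0779), and a constant of 60 gave 0.49. CXCL10 averaged 123.4 ± 35.4 with LSD1 siRNA and 101.3 ± 4.1 with control siRNA (SD, n = 3 each) and did not pass (0.22, adjusted p = 0.471).

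Among the other 8 genes, 5 rose (62.5%, against 19.8% of all genes) and none fell (against 21.3%). SAMD9L, an antiviral and growth-restraining protein, gave 951.3, 1008.1 and 1015.3 with LSD1 siRNA, against 507.2, 392.9 and 420.6 with control siRNA. The groups lay far apart, SAMD9L rose by 1.15 (SE 0.10, adjusted p = 4.07e-06), and its 3 probe sets were all higher, by 0.86 to 1.15. Its paralog SAMD9 rose by 0.52 (SE 0.07, adjusted p = 7.15e-05), averaging 1404.9 ± 30.0 with LSD1 siRNA and 976.5 ± 17.8 with control siRNA (SD, n = 3 each). TRIM22, a ubiquitin ligase that restricts retroviruses, gave 194.9, 183.7 and 209.8 with LSD1 siRNA, against 63.5, 42.4 and 96.2 with control siRNA. Every LSD1 siRNA array of TRIM22 was above every control siRNA array, and it rose by 1.41 (SE 0.24, adjusted p = 0.000532). ISG20, an exonuclease that degrades RNA, gave 667.8, 661.0 and 634.5 with LSD1 siRNA, against 444.0, 447.3 and 381.9 with control siRNA. The groups did not overlap, and ISG20 rose by 0.61 (SE 0.10, adjusted p = 0.000294). Its second probe set rose by 1.46 and the mean of both gave 1.04 (adjusted p = 7.01e-05). PARP9, a macrodomain protein that acts on STAT signalling, rose by 0.37 (adjusted p = 0.0324). The call of PARP9 was lost under 7 alternatives (adjusted p 0.0552 to 0.114), among them the removal of control replicate 1 (0.0987), control replicate 3 (0.0631), LSD1 replicate 1 (0.0703) or LSD1 replicate 3 (0.114). Its partner PARP14 did not pass (0.30, adjusted p = 0.224), but passed without LSD1 replicate 2 (0.50, adjusted p = 0.0331). The changes of EPSTI1 and of XAF1, a pro-apoptotic factor, were -0.06 (95% interval -0.40 to 0.27) and 0.05 (-0.56 to 0.65).

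Probe sets of 1 gene often target different transcript ends, so each was also tested on its own. Of 66 probe sets of these genes past the filter, 28 were higher with LSD1 siRNA (42.4%), against 15.3% of all 32747 probe sets tested, and 2 were lower (3.0%), against 16.1%. Of 20 genes with at least 2 tested sets, 18 had the same sign on all of them, and EIF2AK2 and IRF1 had opposite signs with no set past the test. All sets were higher for IFIT2, ISG20, OAS1, SAMD9 and SAMD9L, none passed for 7 genes, and 8 genes had calls on some sets only.

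The genes were also ordered by mean signal over the 6 arrays, which describes measurement error and not RNA amount between genes. The 21 dimmer genes (mean signal 33.0 to 484.0) had a median SE of 0.18 on the log2 scale, and the 21 brighter ones (501.3 to 10882) a median SE of 0.08.

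**Figure D3:**
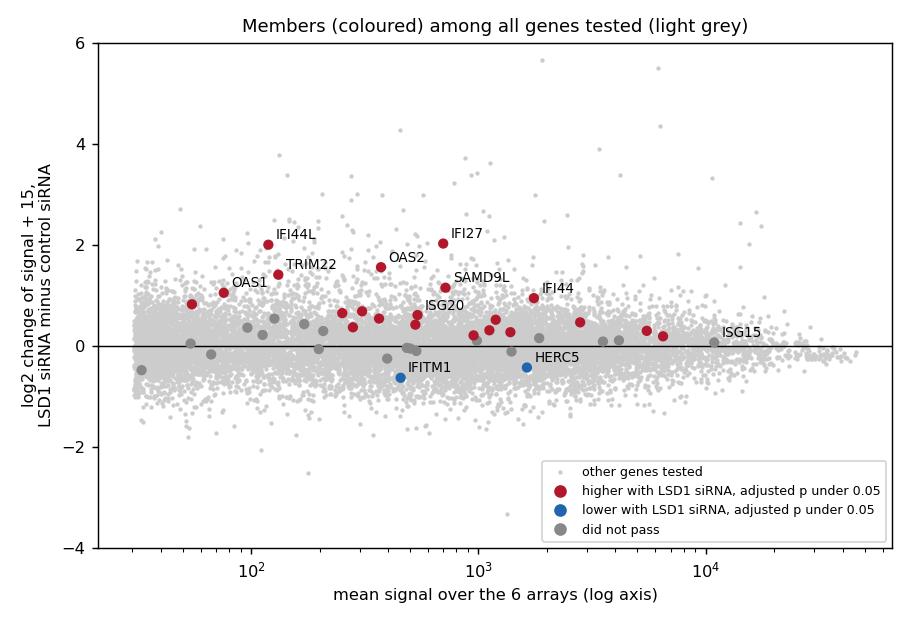
Log2 change of signal + 15 (y axis, LSD1 siRNA minus control siRNA) against mean signal over the 6 arrays (x axis, log scale) for all 13847 genes tested; coloured points are the 42 interferon-stimulated genes and light grey points the other genes. IFI27 at 2.03 and IFI44L at 2.00 are the highest of the 42 and lie within the spread of the other genes, while ISG15 lies near 0.

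Many of the genes sit in tandem clusters of related copies, and 14 pairs lay beside each other in RefSeq gene order, or with at most 2 coding genes between. On chromosome 1 IFI44L and IFI44 both rose, and on chromosome 7 SAMD9 and SAMD9L both rose. On chromosome 12 OAS1 and OAS2 rose, and OAS3 between them had a change of -0.04. On chromosome 11 IFITM1 fell, and IFITM2 and IFITM3 on either side did not pass. On chromosome 4 HERC5 fell by 0.43 and HERC6 had a change of 0.21. On chromosome 21 MX1 rose, and the change of MX2 was -0.17. The differences between neighbours were not tested.

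**Figure D4:**
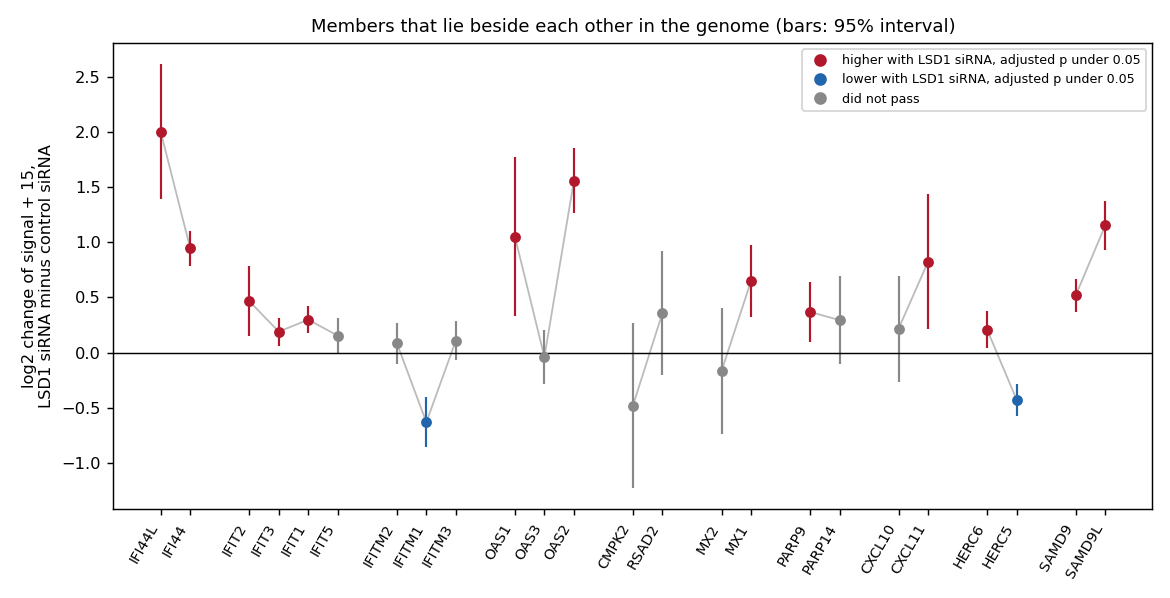
Log2 change of signal + 15 (y axis, LSD1 siRNA minus control siRNA) for genes in chromosomal order within each cluster; points are fitted changes from 3 arrays a group, bars are 95% intervals, and lines join neighbours. OAS3 at -0.04 lies between OAS1 at 1.05 and OAS2 at 1.56, and IFITM1 at -0.63 lies between IFITM2 and IFITM3.

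The wider pathway was read from a list of 64 other genes for interferons, receptors, signalling, induction, inhibitors and further targets. Of these, 59 had a probe set assigned to them alone, 17 were below the filter and 42 were tested. With LSD1 siRNA 14 of the 42 rose (33.3%, against 19.8% of all genes) and 7 fell (16.7%, against 21.3% of all genes), with a median log2 change of 0.08. Among the interferons themselves, 15 of 18 with a probe set were below the filter and none of the 3 tested passed. IFNB1, interferon-beta, gave 3.5, 6.5 and 3.3 with LSD1 siRNA, against 3.3, 3.3 and 2.2 with control siRNA. These overlapping values are below the filter, and they carry no detection call.

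Of the 6 receptor subunits 4 rose (66.7%, against 19.8% of all genes) and none fell. IFNAR1 gave 437.0, 473.8 and 508.6 with LSD1 siRNA, against 519.5, 549.8 and 516.1 with control siRNA, and did not pass (-0.16, adjusted p = 0.215). IFNAR2 gave 430.4, 431.8 and 287.7 with LSD1 siRNA, against 259.9, 258.3 and 252.9 with control siRNA. Replicate 3 with LSD1 siRNA was nearer to the controls than the other 2, and IFNAR2 rose by 0.53 (SE 0.15, adjusted p = 0.0154). Its call was lost without LSD1 replicate 1 (0.0690) or LSD1 replicate 2 (0.0708), without the intensity trend (0.0528) or in an unmoderated test (0.114), and a brighter set marked for possible cross-hybridisation gave 0.26 (adjusted p = 0.0428). IL10RB, a shared subunit of the interleukin-10 and interferon-lambda receptors, gave 1624.1, 1701.4 and 1984.9 with LSD1 siRNA, against 870.0, 865.4 and 856.9 with control siRNA. The groups lay far apart, and IL10RB rose by 1.02 (SE 0.08, adjusted p = 2.24e-06). The interferon-gamma receptor subunits IFNGR1 and IFNGR2 rose by 0.42 and 0.25 (adjusted p = 0.000233 and 0.00920).

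The receptor kinases went in opposite directions. JAK1 gave 5452.9, 5513.2 and 5838.4 with LSD1 siRNA, against 4147.4, 4001.5 and 4388.5 with control siRNA, and rose by 0.42 (adjusted p = 0.000172). Over all its probe sets the JAK1 change averaged 0.23 and not past the test (adjusted p = 0.127). TYK2 gave 716.9, 661.5 and 663.5 with LSD1 siRNA, against 862.5, 908.5 and 922.8 with control siRNA. All LSD1 siRNA arrays were lower, and TYK2 fell by 0.39 on the log2 scale (adjusted p = 0.00166).

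Of 11 tested genes that act in the induction of interferon, 4 rose and 4 fell (36.4% each, against 19.8% and 21.3% of all genes). TLR3, the endosomal sensor of double-stranded RNA, gave 208.7, 254.4 and 212.6 with LSD1 siRNA, against 91.7, 80.3 and 107.8 with control siRNA, and rose by 1.15 (adjusted p = 0.000213). IKBKE, a kinase that activates IRF factors, and STING1, the adaptor for cytosolic DNA sensing, each rose by 0.68 (adjusted p = 7.85e-05 and 0.000604). The groups did not overlap for any of these. TBK1, the related kinase, was higher by 0.18 (adjusted p = 0.0446), a call lost under 10 alternatives (adjusted p 0.0502 to 0.157), among them quantile normalization (0.0526), median centring (0.0502) and the removal of control replicate 1 (0.157), control replicate 2 (0.0801), LSD1 replicate 1 (0.0914), LSD1 replicate 2 (0.0914) or LSD1 replicate 3 (0.124). IRF3, the factor that TBK1 and IKBKE activate, gave 1016.8, 1171.4 and 932.4 with LSD1 siRNA, against 1238.7, 1335.5 and 1193.1 with control siRNA, and fell by 0.27 on the log2 scale (adjusted p = 0.0303). Its call was lost under 6 alternatives (adjusted p 0.0611 to 0.136), among them the removal of control replicate 1 (0.0611), control replicate 2 (0.108), LSD1 replicate 1 (0.0804) or LSD1 replicate 3 (0.130). CGAS, the sensor of cytosolic DNA, fell by 0.30 on the log2 scale (adjusted p = 0.0228), a call lost without control replicate 2 (0.0632), control replicate 3 (0.0627) or LSD1 replicate 2 (0.102), in an unmoderated test (0.0648), and with the mean of its sets (-0.07, adjusted p = 0.768). TRIM25, a ubiquitin ligase that acts on RIGI, fell by 0.38 on the log2 scale (adjusted p = 0.000600), with a mean over its sets of -0.23 that was not past the test (adjusted p = 0.135). TRAF3, an adaptor that is required for interferon induction, gave 1433.7, 1284.7 and 1271.2 with LSD1 siRNA, against 1975.2, 2171.3 and 1934.8 with control siRNA. The groups did not overlap, and TRAF3 fell by 0.60 on the log2 scale (adjusted p = 5.53e-05). Over all its sets TRAF3 averaged -0.25 and not past the test (adjusted p = 0.105).

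Of 8 negative regulators 2 rose and 1 fell, where 19.8% of all genes rose and 21.3% fell, so the share that rose is near that of all genes. PIAS4 averaged 425.5 ± 20.6 with LSD1 siRNA and 586.9 ± 63.9 with control siRNA (SD, n = 3 each). It fell by 0.45 on the log2 scale (adjusted p = 0.00417), a call kept under all 17 alternatives. SOCS3, an inhibitor of cytokine receptor signalling, averaged 2665.4 ± 152.3 with LSD1 siRNA and 1507.7 ± 120.4 with control siRNA (SD, n = 3 each) and rose by 0.82 (adjusted p = 6.01e-06). The mean over the SOCS3 probe sets was 0.43 (adjusted p = 0.0509). SOCS1, the related inhibitor, averaged 124.3 ± 15.2 with LSD1 siRNA and 78.2 ± 18.9 with control siRNA (SD, n = 3 each) and rose by 0.59 (adjusted p = 0.0453). The SOCS1 call was lost without any 1 of 5 arrays (adjusted p 0.0578 without LSD1 replicate 1, 0.105 without LSD1 replicate 2, 0.150 without LSD1 replicate 3, 0.121 without control replicate 2 and 0.110 without control replicate 3). It was also lost with the replicate block (0.0701), with no filter (0.101) and in an unmoderated test (0.0863), and the mean of its sets was -0.15 (adjusted p = 0.644). UBE2L6, the enzyme that carries ISG15 to HERC5, averaged 1260.5 ± 85.7 with LSD1 siRNA and 740.7 ± 35.5 with control siRNA (SD, n = 3 each) and rose by 0.75 (adjusted p = 1.65e-05). ADAR, the RNA editing gene of the list, fell by 0.26 on the log2 scale (adjusted p = 0.00240), also under all 17 alternatives.

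Of 9 tested genes known chiefly as interferon-gamma targets, 2 rose (22.2%, near the 19.8% of all genes) and none fell, and both are guanylate-binding proteins, GTPases that act against intracellular pathogens. GBP1 averaged 3949.9 ± 74.6 with LSD1 siRNA and 1560.1 ± 171.5 with control siRNA (SD, n = 3 each), a log2 change of 1.34 (SE 0.08, adjusted p = 1.93e-07). GBP3 averaged 6883.7 ± 90.4 with LSD1 siRNA and 3248.8 ± 213.5 with control siRNA (SD, n = 3 each), a log2 change of 1.08 (SE 0.06, adjusted p = 1.93e-07). The other tested genes of this list overlapped between the siRNA groups and did not pass. GBP2, IRF8, IDO1 and GBP4 had changes of 0.35, 0.38, 0.31 and 0.25 (adjusted p 0.152 to 0.637). WARS1, CIITA and CXCL9 had changes of -0.09, -0.35 and -0.60 (adjusted p 0.274 to 0.617).

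**Figure D5:**
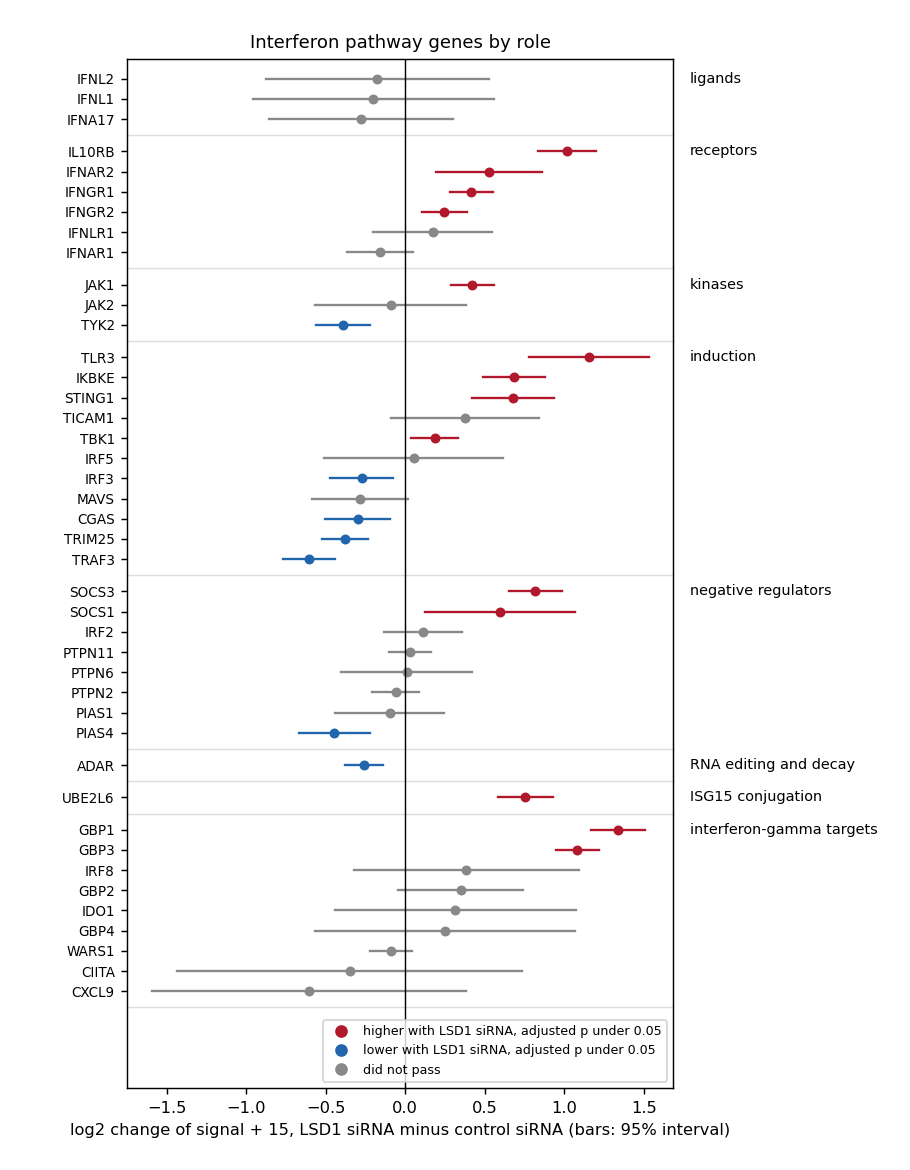
Log2 change of signal + 15 (x axis, LSD1 siRNA minus control siRNA) for the 42 other interferon pathway genes tested, by role; points are fitted changes from 3 arrays a group, bars are 95% intervals, and colour gives the direction where the adjusted p was under 0.05. GBP1 at 1.34 is the highest and TRAF3 at -0.60 is among the lowest.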

How the data were processed

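Per the labels, RNA of MDA-MB-231 cells with LSD1 siRNA (3 samples) or control siRNA (3 samples) was labelled, starting with 2.5 ug each, and hybridised to Affymetrix arrays. The authors deposited a linear intensity for each of 54675 probe sets. GCOS, MAS5 and Affymetrix Expression Console 1.1 are named in the submitters' processing notes. Every array has a trimmed mean of 500.1, so intensities are already on 1 scale, and a difference in total RNA per cell is not visible. There are no detection calls, and low MAS5 intensities are noisy.

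The platform annotation gives 1 gene symbol to 41097 probe sets and several to 1801, and 11777 have no entry in it. Gene identifiers of 41043 single-symbol sets were found in the RefSeq table. A gene was read by its brightest probe set, with x-suffix sets, marked for possible cross-hybridisation, as a last resort. Signals were shifted by 15, the 25th percentile over all arrays, before log2, so changes of dim genes are understated. Testing covered 13847 genes whose mean exceeded a signal of 30.5, which is the 40th percentile of probe set means. The test was limma 3.58.1 in R 4.3.3 (lmFit, then eBayes with an intensity trend; no covariate; two-sided; Benjamini-Hochberg over all genes), and the script was tested on simulated data. Figures were drawn with matplotlib 3.10.9.

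The members and lists were chosen with earlier results of these data known. By rule, array values are given for members that passed with at least 1.5-fold higher or any lower signal and for a few named regulators, and means, changes or ranges for the others. From the wider list, a few named genes and every one past the test with at least 1.5-fold were to be described. IFNGR1, IFNGR2, TBK1, CGAS, TRIM25, PIAS4, ADAR and the tested interferon-gamma targets that did not pass were added after their values were seen. So were the cell line markers and the printed promoters. The replicates are described as biological, and the number of arrays limits the precision. Alternatives changed the constant, filter, scaling, variance model, choice of probe set and replicate block, and left out each array in turn.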

Additional observations from a re-analysis of the deposited data

How the results depend on the processing

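Of the 23 genes that changed, 13 kept their direction and call under each of the 17 alternatives: BST2, HERC5, IFI27, IFI44, IFI44L, IFIT1, IFITM1, ISG20, MX1, OAS2, SAMD9, SAMD9L and TRIM22. The number higher with LSD1 siRNA ranged from 15 (unmoderated test, and without LSD1 replicate 3) to 21, and leaving out 1 array gave 15 to 18. Calls over all 13847 genes also became fewer, from 5686 in the main fit to 4275 in the unmoderated test and 4855 without LSD1 replicate 3. The number lower was 2 under each alternative except 3 without control replicate 3. OAS1 and CXCL11 have no value with the filter at the 60th percentile, which they do not reach. Averaging a gene's probe sets left 4 of the wider pathway genes lower, against 7 with the brightest set. Calls over all genes in either direction also became fewer there, at 4406 of 13196 genes, against 5686 of 13847 with the brightest set. The same averaging turned the sign of 4 log2 changes: HERC6 (-0.15), SOCS1 (-0.15), XAF1 (-0.20) and IRF1 (0.0557). Other sign changes, none past the test, came from leaving out 1 array. Their ranges over those fits were -0.13 to 0.0217 for OAS3, -0.12 to 0.0617 for IRF1, -0.0725 to 0.19 for XAF1, -0.18 to 0.017 for DDX60, -0.014 to 0.14 for ISG15, -0.13 to 0.0591 for EPSTI1 and -0.33 to 0.0117 for MX2. The causes were not tested. Deviations of same-numbered arrays from their group means had small correlations (0.018, -0.004 and 0.027). Whether same-numbered arrays were prepared together is not given in the labels, and these correlations cannot decide it. With the replicate block 20 members were higher and 2 lower, CXCL11 being lost (adjusted p = 0.0523), and 5697 of all genes changed. Of the wider pathway genes named, SOCS1 lost its call there (adjusted p = 0.0701). LSD1 replicates 1 and 3 correlated best with their own number (0.018 and 0.027) and LSD1 replicate 2 with control replicate 1 (0.014). Signals near the filter carry the largest errors, and 3 arrays a group limit what can be called among them.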
